A study of Homo sapiens with 6 samples.

Results

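The genes described here are 44 genes of glycolysis and of the response to low oxygen, chosen by symbol from the 17471 genes with values. They comprised 8 regulators of the hypoxia-inducible factors (HIF), 17 glycolytic enzymes, 7 transporters and regulators of glycolytic flux, and 12 other HIF targets. All 44 were found, and 40 were expressed enough to be tested. The RNA came from AN3CA cells, a long-established line of human endometrial carcinoma, in which the study lowered *PAX2*, the gene of a developmental transcription factor. The control group (shEV, labelled WT, 3 libraries) carried a control hairpin vector without *PAX2* sequence (empty by the methods, although the study calls the control of this line scrambled elsewhere), and the other group (shPAX2, labelled PAX2 KD, 3 libraries) carried a short hairpin RNA against *PAX2*. Cells of both groups had been transduced with lentivirus and selected with puromycin. A single hairpin was used. No oxygen level is given in the sources used here, and no library was labelled as hypoxic. Nothing in the labels says whether replicates were separate cultures, so p-values measure only the spread between these libraries.

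HIF is a pair of proteins, an alpha subunit (HIF1A or EPAS1, the latter also called HIF-2 alpha) and the stable partner ARNT. In the presence of oxygen, the prolyl hydroxylases EGLN1, EGLN2 and EGLN3 mark the alpha subunit, VHL binds the mark, and the subunit is degraded, while the asparaginyl hydroxylase HIF1AN blocks its transactivation domain. When oxygen is low, the alpha subunit accumulates, enters the nucleus and binds short elements with the core ACGTG or GCGTG next to genes of glucose uptake, glycolysis, blood vessel growth and mitophagy. Much of this control acts on the protein, so mRNA of the subunits does not report HIF activity, whereas mRNA of the targets responds to it.

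Values were TPM, which are scaled by gene length and library total and can therefore be compared between genes. The 6 libraries held 10730909 to 29405787 reads, as recovered from the TPM values, with the shPAX2 libraries all deeper than the deepest shEV library. Where 3 values are given for a group, they are in the order of replicates 1 to 3. *PAX2* stood at 4.03, 3.66 and 2.74 TPM (shEV) and 0.916, 0.723 and 1.17 TPM (shPAX2), a log2 fold change of -1.47 (SE 0.18, limma adjusted p = 2.94e-04), so the targeted gene was lower in every shPAX2 library. Of 6 epithelial markers with values only *KRT18* reached 0.5 TPM in 3 libraries (summed list 10.9 to 13.3 TPM in shEV and 12.3 to 18.0 TPM in shPAX2). *CDH1*, *EPCAM*, *KRT8* and *KRT19* stayed under 0.5 TPM. Of 5 mesenchymal markers 3 reached 0.5 TPM in 3 libraries. Almost all of their sum (4131 to 4510 TPM in shEV and 3838 to 3949 TPM in shPAX2) was *VIM*. *ZEB1* stood at 79.4 to 94.1 TPM, while *CDH2* was at most 0.0777 TPM and *FN1* 0.131 to 0.827 TPM. *SNAI2* was lower in shPAX2, at -0.78 (limma adjusted p = 0.0366, called in 7 of 15 fits). Of 4 endometrial epithelium markers with values, *PAX8* and *ESR1* were at or near 0, while *HOXA10* (8.88 ± 1.02 against 29.5 ± 3.79 TPM, SD, n = 3 each) and *HOXA11* (3.01 ± 0.315 against 10.4 ± 0.437 TPM) were higher in shPAX2, with log2 fold changes of 1.68 (adjusted p = 1.25e-05) and 1.64 (adjusted p = 7.08e-06) by limma, called in all 16 fits. That list summed to 10.4 to 12.9 TPM in shEV and 36.6 to 44.1 TPM in shPAX2. Leukocyte markers summed to at most 2.28 TPM and endothelial markers to at most 0.0611 TPM in a library. The stromal list rose from between 28.3 and 43.0 TPM to between 238 and 250 TPM, almost all of it *COL3A1*. The part of the stromal and endometrial lists in the results below was not tested. In bulk RNA, fewer cells expressing a gene and less RNA per cell cannot be told apart.

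Across the 40 tested genes, lower expression in shPAX2 was more frequent than higher expression. By limma, 17 passed an adjusted p under 0.05 as lower (42.5%, against 30.5% of all 13163 tested genes) and 1 as higher (2.50%, against 12.2%), with 42.8% of all genes called in either direction. With the further requirement of a log2 fold change of at least 1 in size, 3 were lower (*DDIT4*, *CA12* and *ANKRD37*, against 3.11% of all genes) and 1 was higher (*EGLN3*, against 1.43%). The median log2 fold change was -0.33 over the tested members and -0.10 over all tested genes, a difference of -0.23. The TPM scale itself carries that shift of all genes, and median-of-ratios scaling moved the median of all genes from -0.10 to 0.01. On that scale 9 members were lower (22.5%, against 19.6% of all genes) and 3 higher (7.50%, against 21.8%), so the share of lower members was then near the background. Quantile normalization, which also brought the median of all genes to 0.00, gave 16 lower members (40.0%, against 18.9% of all genes) and 3 higher (7.50%, against 18.0%), so these 2 scalings gave different shares. The size of change also differed by role. The median was -0.13 for HIF regulators, -0.25 for glycolytic enzymes, -0.31 for transporters and flux regulators and -0.91 for the other HIF targets, and it followed the same order relative to all genes (-0.03, -0.15, -0.21 and -0.81).

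**Figure D1:**
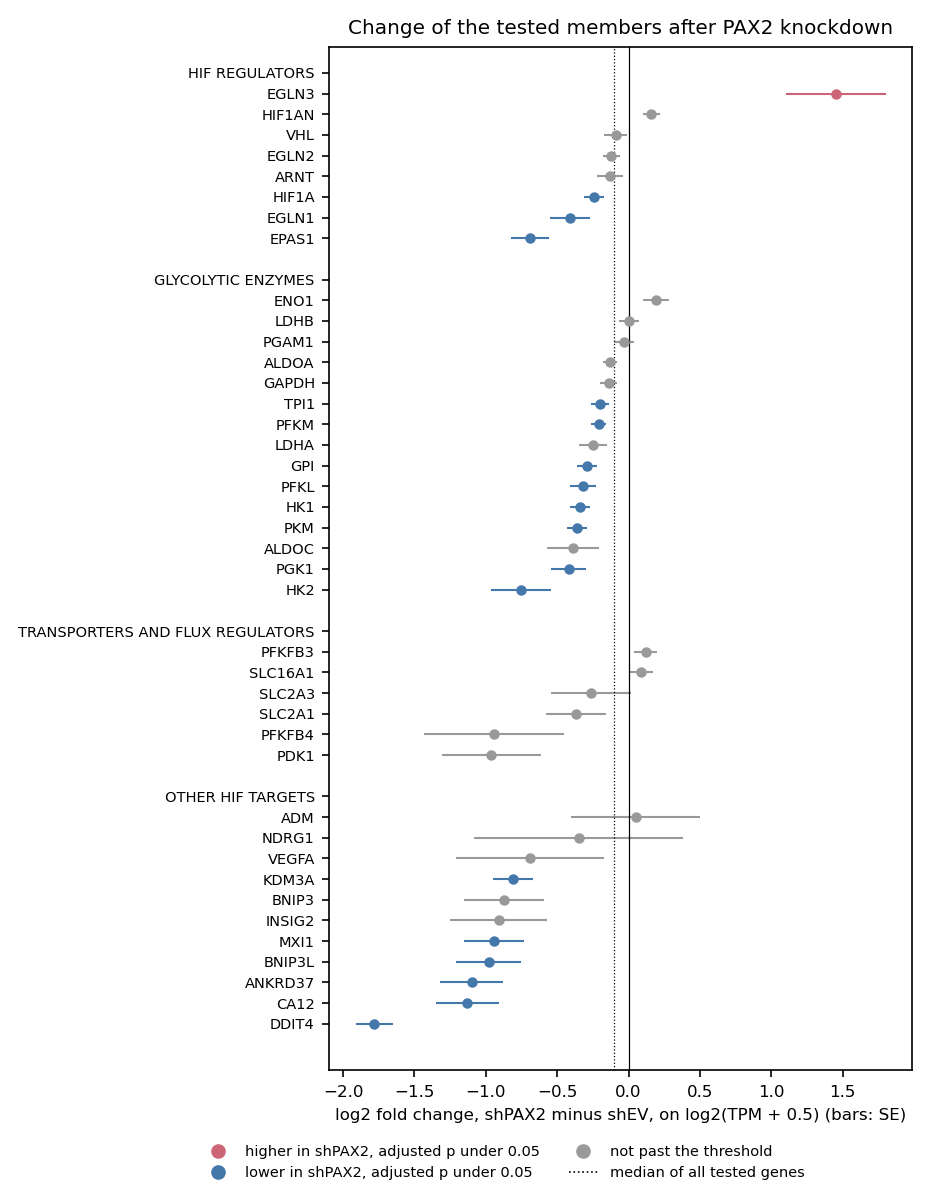
Log2 fold change of each of the 40 tested members (x axis, shPAX2 minus shEV on log2(TPM + 0.5), bars are SE, n = 3 libraries per group), grouped by role, with the dotted line at the median of all tested genes (-0.10). *DDIT4* lies lowest at -1.78, *EGLN3* stands alone above 1 at 1.45, and most glycolytic enzymes lie between -0.42 and the line at 0.

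The regulators came first. *HIF1A*, the oxygen-regulated subunit found in most tissues, was by far the most abundant of them, at 373, 385 and 427 TPM (shEV) and 322, 330 and 348 TPM (shPAX2). All shPAX2 values lay below all shEV values, by a small margin, with a log2 fold change of -0.24 (SE 0.07, limma adjusted p = 0.0186). The call was lost under median-of-ratios scaling, at -0.13 (adjusted p = 0.139), and without shEV replicate 3, at -0.19 (adjusted p = 0.0656), or shPAX2 replicate 2 (-0.24, adjusted p = 0.0657). *EPAS1* was far less abundant, at 2.52 to 3.04 TPM in shEV and 1.47 to 1.73 TPM in shPAX2, from 70 to 140 reads per library, and the groups did not overlap. It fell by 0.69 on the log2 scale (SE 0.13, limma adjusted p = 0.00320), and the call held in all 15 fits that tested it, at -0.42 under quantile normalization. The ratio of *HIF1A* to *EPAS1* was accordingly 127 to 148 in shEV and 186 to 237 in shPAX2. *ARNT* overlapped between the groups, with 28.5 to 36.2 TPM over all libraries and a log2 fold change of -0.13 (adjusted p = 0.240).

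The 3 prolyl hydroxylases did not move together. *EGLN1*, the main oxygen sensor in most cells, stood at 28.6, 31.6 and 42.2 TPM (shEV) and 26.0, 23.4 and 26.4 TPM (shPAX2). Its log2 fold change of -0.41 (SE 0.14, limma adjusted p = 0.0460) was just past the threshold, and was lost in 8 of 16 fits, among them median-of-ratios scaling (-0.30 (adjusted p = 0.117)) and the fits without shEV replicate 2 or any 1 shPAX2 library (adjusted p = 0.0744 to 0.140). Without shEV replicate 3, the highest library, it was -0.25 (adjusted p = 0.0479). *EGLN2* held between 44.2 and 53.2 TPM in all libraries (log2 fold change -0.12 (adjusted p = 0.141)), and 2012 of its 6574 annotated exonic bases are shared with the listed read-through gene *RAB4B-EGLN2* on the same strand, so reads could have gone to either. *EGLN3*, a hydroxylase that is itself induced by HIF in many cells, went the other way. It stood at 8.42, 12.9 and 17.6 TPM (shEV) and 25.3, 41.8 and 40.1 TPM (shPAX2), and every shPAX2 library was above every shEV library. The mean rose from 13.0 ± 4.60 to 35.7 ± 9.05 TPM (SD, n = 3 each), 2.75 times as high, with a log2 fold change of 1.45 (SE 0.35, limma adjusted p = 0.0279). Its values spread within both groups, and the call was lost without shEV replicate 2 (1.48, adjusted p = 0.0683), shPAX2 replicate 2 (1.32, adjusted p = 0.0971) or shPAX2 replicate 3 (1.35, adjusted p = 0.10), with the change above 1 in every fit (1.18 to 1.69). The ratio of *EGLN3* to *EGLN1* was 0.294, 0.408 and 0.418 in shEV and 0.975, 1.79 and 1.52 in shPAX2, so the most abundant of this pair was *EGLN1* in every shEV library and *EGLN3* in 2 of the 3 shPAX2 libraries.

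*HIF1AN*, which lies near *PAX2* on chromosome 10, stood between 20.8 and 23.0 TPM in shEV and between 23.6 and 25.0 TPM in shPAX2, without overlap. Its difference was 0.16 (SE 0.06, limma adjusted p = 0.0743) on the TPM scale and 0.27 (adjusted p = 0.00857) under median-of-ratios scaling, so the call depended on the fit. Calls also came under quantile normalization (0.26, adjusted p = 0.0123), with voom (0.19, adjusted p = 0.0176) and without shEV replicate 1 (0.20, adjusted p = 0.0499). *HIF1AN* was thus called in 4 of 16 fits. It shares 325 exonic bases with *NDUFB8* on the opposite strand, and the counting strand is not given in the sources used here. *VHL*, the substrate receptor of the ligase, overlapped between the groups at 22.7 to 27.8 TPM (log2 fold change -0.09 (adjusted p = 0.394)), and its sign turned under median-of-ratios scaling (0.02).

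**Figure D2:**
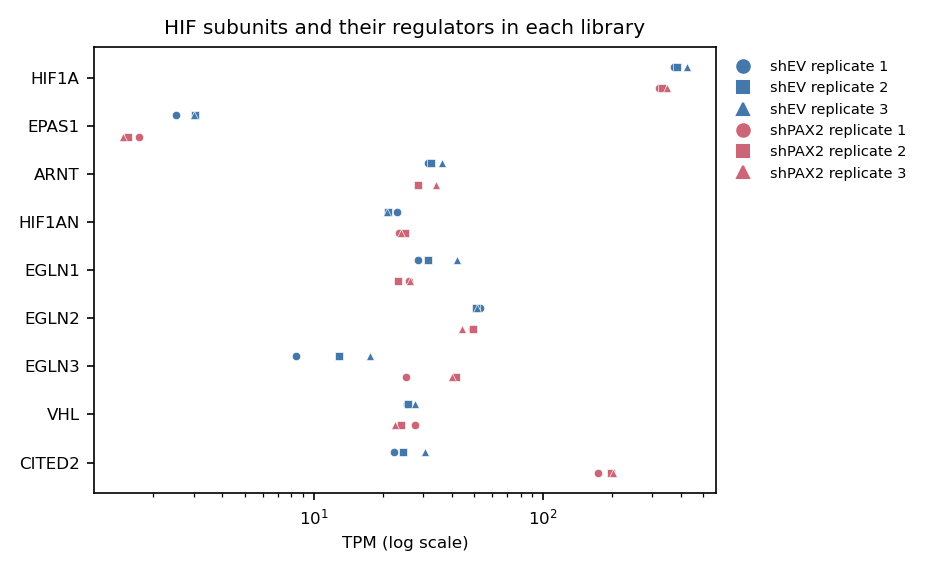
TPM (x axis, log scale) of the 8 HIF regulators and of *CITED2*, an inhibitor of HIF transactivation, with 1 point per library (blue shEV, red shPAX2, shapes give the replicate). *HIF1A* lies 127 to 237 times above *EPAS1*, and among the 8 regulators *EGLN3* has the log2 fold change largest in size (1.45).

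Beyond the 44, the regulator of HIF that changed most was *CITED2*, which competes with the HIF alpha subunits for the coactivators EP300 and CREBBP and is itself a HIF target. It stood at 22.5, 24.6 and 30.7 TPM (shEV) and 174, 198 and 203 TPM (shPAX2), so that the lowest shPAX2 library was several times the highest shEV library. The mean rose from 26.0 ± 4.25 to 191 ± 15.5 TPM (SD, n = 3 each), 7.37 times as high, with a log2 fold change of 2.87 (SE 0.12, limma adjusted p = 1.87e-06), called in all 16 fits. *CITED2* lies on chromosome 6 (139692944 to 139695785, GRCh37), where the median change over 630 tested genes with a position was 0.39 on the log2 scale, compared with -0.12 on the other chromosomes. The part of that shift in the value of *CITED2* was not tested. Relative to *HIF1A*, *CITED2* mRNA was at 0.0604 to 0.0719 in shEV and at 0.540 to 0.598 in shPAX2. In a list of 14 other HIF pathway genes, 11 were tested, of which 2 were higher (18.2%, against 12.2% of all genes; *CITED2* and the chaperone gene *HSP90AA1*, 0.31) and 4 lower (36.4%, against 30.5%), both near the background. The lower ones were *OS9* (-0.37), the ubiquitin ligase *SIAH2* (-0.34), *CREBBP* (-0.31) and *EP300* (-0.27), with limma adjusted p from 0.00111 to 0.0162, and only *OS9* of these remained called as lower under median-of-ratios scaling. *CUL2*, *RBX1* and both elongin genes (*TCEB1* and *TCEB2*), which form the ligase with *VHL*, did not pass, and *RBX1* (0.28, adjusted p = 0.0173) and *TCEB1* (0.34, adjusted p = 0.0131) were higher under median-of-ratios scaling. *HIF3A*, *ARNT2* and *P4HTM* were at most 0.07 TPM in a library and were not tested.

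The other HIF targets showed the largest changes. Of 11 tested, 6 were lower by limma (54.5%, against 30.5% of all genes) and none was higher (against 12.2%). Under median-of-ratios scaling and under quantile normalization 6 were lower as well (against 19.6% and 18.9% of all genes). None of the 11 was called higher in any fit. The groups were apart, with every shPAX2 library lowest, in 8 of 11 (72.7%, against 39.0% of all genes). *DDIT4*, an inhibitor of mTORC1 that is induced by low oxygen and by other stresses, changed most. It stood at 237, 263 and 333 TPM (shEV) and 87.0, 79.9 and 73.0 TPM (shPAX2), and the groups were widely separated. The mean of the shEV libraries was 278 ± 49.6 TPM (SD, n = 3) and the shPAX2 mean was 28.8% of it, with a log2 fold change of -1.78 (SE 0.13, limma adjusted p = 5.67e-05) that was called in all 16 fits (-1.89 to -1.64).

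*ANKRD37*, an ankyrin repeat gene used as a marker of HIF activity, stood at 6.38, 10.7 and 12.2 TPM (shEV) and 4.62, 3.89 and 3.95 TPM (shPAX2). The highest shPAX2 library was below the lowest shEV library, and the log2 fold change of -1.10 (SE 0.22, limma adjusted p = 0.00758) was called in all 16 fits. *ANKRD37* shares 909 of its 2253 exonic bases with *UFSP2* on the opposite strand, and *UFSP2* itself changed by 0.03 (adjusted p = 0.694). *KDM3A*, a histone demethylase that removes methyl groups from lysine 9 of histone H3, stood at 9.51, 12.3 and 13.1 TPM (shEV) and 7.33, 5.57 and 6.27 TPM (shPAX2). Its log2 fold change of -0.81 (SE 0.14, limma adjusted p = 0.00170) was also called in all 16 fits. *MXI1*, an antagonist of MYC, stood at 26.7, 32.5 and 43.8 TPM (shEV) and 19.8, 14.4 and 18.0 TPM (shPAX2), with a log2 fold change of -0.94 (SE 0.21, limma adjusted p = 0.0162) that was lost without shPAX2 replicate 3 (-0.97, adjusted p = 0.0634).

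The pair *BNIP3* and *BNIP3L*, receptors that mark mitochondria for removal, were both lower in every shPAX2 library, and *BNIP3L* alone was called. It stood at 79.9, 90.5 and 128 TPM (shEV) and 60.9, 44.1 and 44.4 TPM (shPAX2), a log2 fold change of -0.98 (SE 0.23, limma adjusted p = 0.0211). The call was lost with the replicate number as a block (adjusted p = 0.0724), without shPAX2 replicate 2 (-0.90, adjusted p = 0.0767) and without shPAX2 replicate 3 (-0.91, adjusted p = 0.0858). *BNIP3* was the more abundant, at 174, 242 and 356 TPM (shEV) and 150, 124 and 131 TPM (shPAX2). The groups did not overlap, but the shEV libraries differed 2.04-fold among themselves, and the log2 fold change of -0.87 (SE 0.28, limma adjusted p = 0.0640) did not pass. It passed in 3 of 16 fits. These were the fit with neither trend nor robust estimation, that without shEV replicate 1 (-1.12, adjusted p = 0.00724) and that without shEV replicate 3 (-0.61, adjusted p = 0.0273). *CA12*, a membrane carbonic anhydrase, was low, at 1.17, 0.740 and 0.780 TPM (shEV) and 0.0493, 0.299 and 0.0773 TPM (shPAX2), from 25, 26 and 28 reads in shEV and 3, 16 and 3 reads in shPAX2. Its log2 fold change was -1.13 (SE 0.22, limma adjusted p = 0.00357), and as a low gene its size moved with the pseudocount, from -2.16 at 0.1 to -0.73 at 1. It was under the filter in the fits without any 1 shEV library. *CA9*, the carbonic anhydrase most often used as a hypoxia marker, was listed at 0 in 5 of the 6 libraries and at 0.713 TPM in shEV replicate 3, and was not tested.

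**Figure D3:**
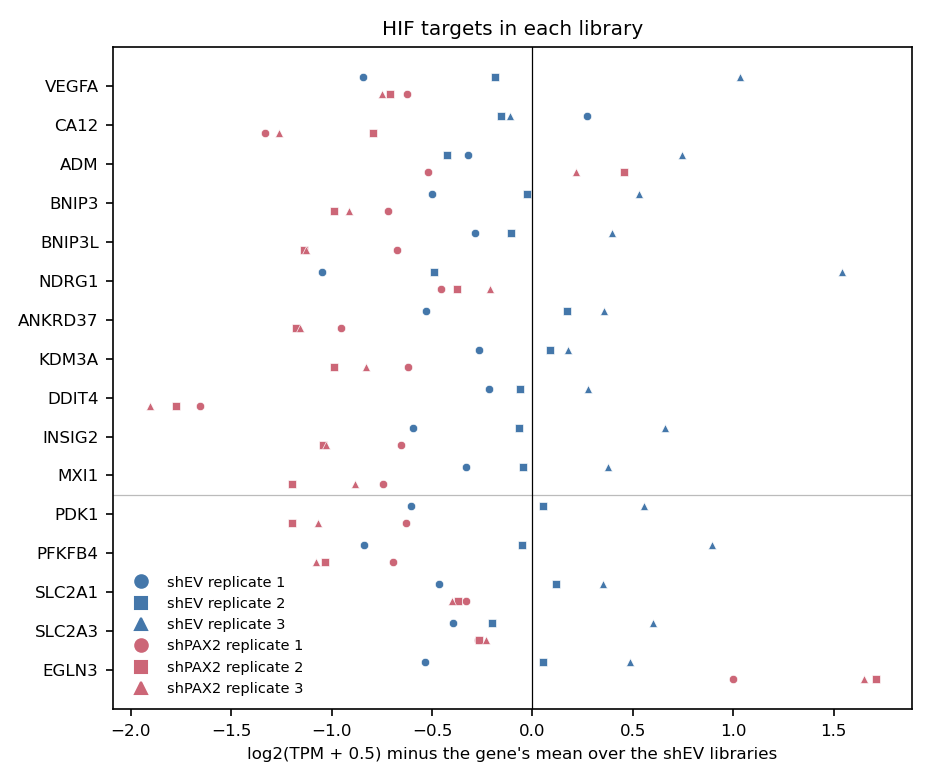
Log2(TPM + 0.5) of HIF targets in each library minus the gene's mean over the shEV libraries (x axis), with the 11 tested other HIF targets above the grey line and 4 flux genes and *EGLN3* below it (blue shEV, red shPAX2, shapes give the replicate). The blue triangle, shEV replicate 3, is the rightmost shEV point in all but *CA12*, and for *NDRG1* it lies far to the right of the other 5 libraries.

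To show what these targets share beside their values, promoters were read from RefSeq for 38 of the 44 members (70 promoters, from 250 bases before to 50 bases after the transcription start). The 250 bases before the start are printed for 3 targets that stood lower in shPAX2 with no overlap between the groups (*DDIT4*, *ANKRD37* and *BNIP3*), for *EGLN3*, which stood higher, and for *LDHA*, a well-known HIF target among the enzymes. Of the 11 tested other HIF targets 8 stood lower in this way, and no rule set which 3 were printed. *BNIP3* was not called, and *KDM3A*, called in all 16 fits, was not printed. The printed windows therefore do not stand for the lower targets as a group. Sequences run 5′ to 3′, and capitals mark each ACGTG or GCGTG, on either strand, so that CACGT and CACGC are the same motifs read on the other strand and CACGTG holds 2 overlapping matches. Positions are those of an exact match to GRCh37.
DDIT4: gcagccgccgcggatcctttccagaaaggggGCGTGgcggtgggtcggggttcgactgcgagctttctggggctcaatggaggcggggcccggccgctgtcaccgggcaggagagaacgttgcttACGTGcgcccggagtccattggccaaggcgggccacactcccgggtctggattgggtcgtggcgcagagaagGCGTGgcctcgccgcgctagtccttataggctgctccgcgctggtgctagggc
ANKRD37: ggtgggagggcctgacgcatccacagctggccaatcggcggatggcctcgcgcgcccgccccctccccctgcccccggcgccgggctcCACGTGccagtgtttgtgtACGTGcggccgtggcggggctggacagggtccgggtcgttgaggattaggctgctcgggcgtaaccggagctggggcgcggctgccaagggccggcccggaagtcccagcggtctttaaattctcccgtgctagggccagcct
BNIP3: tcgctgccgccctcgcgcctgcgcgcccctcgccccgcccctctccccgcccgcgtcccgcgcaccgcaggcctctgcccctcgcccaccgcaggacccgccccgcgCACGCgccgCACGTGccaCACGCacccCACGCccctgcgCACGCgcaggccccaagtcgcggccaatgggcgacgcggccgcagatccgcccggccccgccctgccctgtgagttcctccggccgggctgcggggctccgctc
EGLN3: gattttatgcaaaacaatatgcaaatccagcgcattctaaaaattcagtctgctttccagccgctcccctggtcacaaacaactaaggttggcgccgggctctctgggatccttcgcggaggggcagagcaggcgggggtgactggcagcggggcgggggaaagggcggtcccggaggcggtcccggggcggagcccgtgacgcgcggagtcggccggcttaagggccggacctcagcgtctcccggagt
LDHA: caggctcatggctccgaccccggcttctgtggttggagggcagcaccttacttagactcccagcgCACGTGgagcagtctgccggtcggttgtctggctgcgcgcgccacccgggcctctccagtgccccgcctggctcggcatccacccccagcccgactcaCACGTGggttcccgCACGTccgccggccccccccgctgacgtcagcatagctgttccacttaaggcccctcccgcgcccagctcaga
They lie at chr10:74033432-74033681, plus strand (*DDIT4*), chr4:186317745-186317994, plus strand (*ANKRD37*), chr10:133795428-133795677, minus strand (*BNIP3*), chr14:34420281-34420530, minus strand (*EGLN3*) and chr11:18415860-18416109, plus strand (*LDHA*, the more upstream of 2 listed starts). Where a gene had several listed promoters, the one with the most matches in the 250 bases was printed, so the counts are the highest for each gene. The *BNIP3* window held 6 matches, that of *LDHA* 5, those of *DDIT4* and *ANKRD37* 3 each, and that of *EGLN3* none, which says only that these letters are not in this window. Over the whole window of 300 bases, ACGTG on either strand was found in 38.6% of the members' promoters (27 of 70) and in 21.4% of all 35116 promoters in the table. For the 2 motifs together the shares were 67.1% and 48.4%. Among roles, ACGTG was found in a promoter of 6 of 9 other HIF targets, 11 of 17 glycolytic enzymes, 3 of 5 transporters and flux regulators and 2 of 7 regulators, against 24.9% of all genes. Members had more promoters per gene (70 for 38 members, against 35116 for 27305 genes), which gave each more windows to hold a match. The background was not limited to the 13163 genes tested here, and the base composition of promoters was not matched. These are matches of letters and not sites of binding, and many members are known for such elements.

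For several other HIF targets the control libraries differed widely among themselves. *VEGFA*, the main angiogenic growth factor, stood at 32.6, 51.6 and 121 TPM (shEV) and 38.0, 35.8 and 34.7 TPM (shPAX2). ShEV replicate 1 was below all shPAX2 libraries and shEV replicate 3 far above them, so the groups overlapped and the log2 fold change of -0.69 (SE 0.52, limma adjusted p = 0.344) did not pass. Without shEV replicate 3 it was -0.18 (adjusted p = 0.520). *VEGFA* lies on chromosome 6 (43737921 to 43754224, GRCh37), where the median change of 0.39 was in the opposite direction, and the part of that shift was not tested. *NDRG1*, a stress-responsive gene, ranged from 0.589 to 6.05 TPM in shEV and from 1.15 to 1.44 TPM in shPAX2, and its sign turned from -0.35 to 0.42 (adjusted p = 0.178) without shEV replicate 3. *INSIG2*, which restrains sterol synthesis, stood at 6.49, 9.59 and 16.2 TPM (shEV) and 6.22, 4.62 and 4.68 TPM (shPAX2). It did not pass at -0.91 (adjusted p = 0.0874), but did without shEV replicate 1, at -1.21 (adjusted p = 0.0131). *ADM*, a vasodilator peptide gene, was the 1 target in this group that stood above 0, at 0.05 (adjusted p = 0.938), with 16.9 to 38.7 TPM in shEV and 15.8 to 31.6 TPM in shPAX2, and its sign changed in 5 of the other 15 fits.

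This pattern ran through the members. ShEV replicate 3 was the highest of the shEV libraries in 33 of the 40 tested members (82.5%) and shEV replicate 1 the lowest in 33, against 41.4% and 31.7% of all tested genes. In the other HIF targets the median ratio of shEV replicate 3 to shEV replicate 1 was 1.91, in the transporters and flux regulators 1.89, in the glycolytic enzymes 1.13 and over all genes 1.01. The summed TPM of the 12 other HIF targets was 593, 732 and 1070 in shEV replicates 1 to 3, but 391, 345 and 344 in shPAX2 replicates 1 to 3. The 3 control libraries thus differed among themselves, while the shPAX2 libraries lay close together and below the lowest control. Relative to the shEV mean, the median over the 11 tested targets was -0.33, -0.07 and 0.39 in shEV and -0.68, -0.99 and -0.91 in shPAX2. Leaving out shEV replicate 3 left 6 of 10 other HIF targets lower, with a median of -0.67. Leaving out shEV replicate 1, the shallowest library, gave 7 of 10 and -1.12. The total of lower members was 14 of 39 without shEV replicate 3 and 22 of 39 without shEV replicate 1, and fell to 11 without shEV replicate 2 (of 39) or shPAX2 replicate 2 (of 40). These were 35.9%, 56.4%, 28.2% and 27.5% of members, against 23.0%, 25.5%, 24.6% and 22.0% of all genes in the same fits, so the last 2 shares were near the background. The attention to these 2 libraries was chosen after their values were seen.

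**Figure D4:**
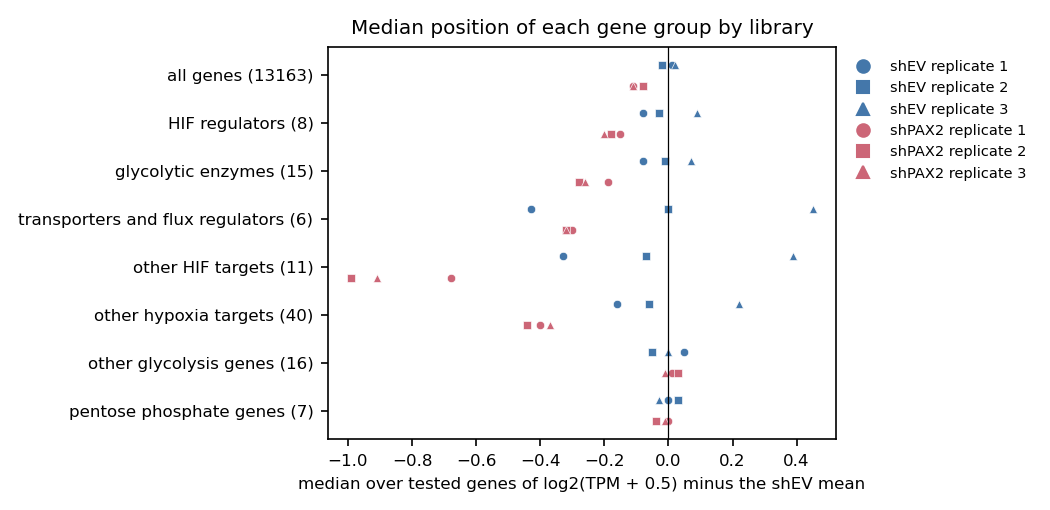
Median position of each gene group in each library (x axis, median over tested genes of log2(TPM + 0.5) minus the shEV mean, number of genes in brackets, blue shEV, red shPAX2, shapes give the replicate). The shPAX2 libraries of the other HIF targets lie between -0.99 and -0.68, below the lowest shEV library at -0.33, whereas for the transporters and flux regulators (-0.32 to -0.30) they lie within the shEV range of -0.43 to 0.45.

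Glucose uptake and the regulators of flux gave no call at all. None of the 6 tested genes passed in either direction, and 1 of them, *PDK1*, had an unadjusted p under 0.05 by limma. *PDK1* passed in the fit with neither trend nor robust estimation (adjusted p = 0.0462), and 3 of the 6 were lower without shEV replicate 1 (50.0%, against 25.5% of all genes). The glucose transporters *SLC2A1* (GLUT1) and *SLC2A3* (GLUT3) were similar in level. *SLC2A1* stood at 31.8, 47.9 and 56.5 TPM (shEV) and 35.0, 34.1 and 33.3 TPM (shPAX2), and the groups overlapped through shEV replicate 1. Its log2 fold change was -0.37 (SE 0.21, limma adjusted p = 0.222), with a 95% interval from -0.91 to 0.17, and without shEV replicate 1 it was called, at -0.60 (adjusted p = 0.00128). *SLC2A3* stood at 39.8 to 79.7 TPM in shEV and 43.3 to 44.6 TPM in shPAX2, and its log2 fold change turned from -0.26 (adjusted p = 0.509) to 0.04 (adjusted p = 0.683) without shEV replicate 3.

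*PDK1*, the kinase that keeps pyruvate out of the mitochondrial citric acid cycle, had among the larger differences of the 6, at 24.0, 38.2 and 54.3 TPM (shEV) and 23.6, 15.8 and 17.3 TPM (shPAX2). The groups were apart only narrowly, since the lowest shEV and the highest shPAX2 value were nearly equal, and the log2 fold change of -0.96 (SE 0.35, limma adjusted p = 0.0879) did not pass. Besides the fit with neither trend nor robust estimation, it passed without shEV replicate 1, at -1.27 (adjusted p = 0.0170). *PFKFB4*, a bifunctional enzyme that sets fructose 2,6-bisphosphate, ranged from 11.6 to 39.6 TPM in shEV and from 9.75 to 12.8 TPM in shPAX2, with a log2 fold change of -0.94 (SE 0.49, limma adjusted p = 0.193) and of -1.36 (adjusted p = 0.0417) without shEV replicate 1. Its relative *PFKFB3*, at 15.1 to 18.5 TPM, and the monocarboxylate transporter *SLC16A1* (MCT1), at 68.2 to 83.2 TPM, had log2 fold changes of 0.12 (adjusted p = 0.266) and 0.09 (adjusted p = 0.411), and *PFKFB3* passed as higher under quantile normalization, at 0.26 (adjusted p = 0.0401). The lactate exporter *SLC16A3* (MCT4) had 2, 3 and 8 reads in shEV and none in any shPAX2 library. It was under the filter, and no fold is given against a group at 0. With no filter it was called lower (limma adjusted p = 0.0201).

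Most glycolytic enzymes were abundant. *GAPDH* stood at 5103 to 6098 TPM, *ENO1*, *TPI1*, *PKM*, *LDHA* and *LDHB* at 859 to 1964 TPM, and *ALDOA* at 769 to 870 TPM. *ALDOA* exceeded *ALDOC* 7.31 to 12.1 times, *PFKM* and *PFKL* stood at similar levels (ratio 1.07 to 1.29), as did *LDHA* and *LDHB*, and *HK1* exceeded *HK2* in every library (ratio of *HK2* to *HK1* 0.216 to 0.352). *PFKP* (1 to 35 reads) and *ENO2*, the neuronal enolase (0 to 5 reads), were under the filter. The highest *PFKP* value, 1.31 TPM, was again in shEV replicate 3. The 17 enzymes together took 1.39%, 1.43% and 1.52% of all TPM in shEV replicates 1 to 3 and 1.27%, 1.32% and 1.36% in shPAX2 replicates 1 to 3. On the TPM scale every shPAX2 library was thus below every shEV library. *GAPDH*, which was not called, was the largest single part of these sums. The sums were not divided by the median-of-ratios factors, 1.025 to 1.053 in shEV and 0.955 to 0.974 in shPAX2. Divided by them the groups would overlap, so this separation would not be kept under that scaling.

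Of the 15 tested enzymes, 8 were lower by limma (53.3%, against 30.5% of all genes) and none was higher, with the largest change under 1 in size. Under median-of-ratios scaling 2 were lower (13.3%, against 19.6%) and 1, *ENO1*, was higher, whereas under quantile normalization 8 were lower (53.3%, against 18.9%) and none was higher. The 2 that were called in all 16 fits were *PKM* and *HK1*. *PKM*, which makes pyruvate and ATP in the last step of the pathway, stood at 1098, 1122 and 1264 TPM (shEV) and 925, 879 and 903 TPM (shPAX2). The log2 fold change was -0.36 (SE 0.07, limma adjusted p = 0.00283), and -0.25 (adjusted p = 0.0170) under median-of-ratios scaling. *HK1*, the first enzyme of the pathway in most tissues, stood at 118, 123 and 141 TPM (shEV) and 101, 99.9 and 99.2 TPM (shPAX2). Its values were -0.34 (SE 0.07, limma adjusted p = 0.00533) and -0.23 (adjusted p = 0.0276) on the 2 scales, and for both genes every shPAX2 library was below every shEV library.

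*HK2*, the hexokinase isoform induced by HIF, had the largest change among the enzymes, at 28.0, 39.0 and 49.5 TPM (shEV) and 23.9, 21.5 and 21.7 TPM (shPAX2). The shPAX2 libraries were close together, while the shEV libraries spread 1.77-fold. Its log2 fold change of -0.75 (SE 0.21, limma adjusted p = 0.0331) was lost in 7 of 16 fits, with -0.64 (adjusted p = 0.0544) under median-of-ratios scaling, an adjusted p of 0.0642 with the replicate block, and -0.79 to -0.72 (adjusted p = 0.0806 to 0.119) without shEV replicate 2 or any 1 shPAX2 library. *PGK1*, the first enzyme of the pathway to yield ATP, stood at 534, 587 and 741 TPM (shEV) and 504, 442 and 439 TPM (shPAX2), a log2 fold change of -0.42 (SE 0.12, limma adjusted p = 0.0269) that was -0.30 (adjusted p = 0.0774) under median-of-ratios scaling and was lost without shEV replicate 2 (-0.45, adjusted p = 0.0524), shPAX2 replicate 2 (-0.39, adjusted p = 0.0872) or shPAX2 replicate 3 (-0.38, adjusted p = 0.10). With the replicate block its adjusted p was 0.0619. The remaining lower enzymes were *GPI* (-0.29), *PFKL* (-0.32), *PFKM* (-0.21) and *TPI1* (-0.20), with limma adjusted p from 0.00684 to 0.0179. Under median-of-ratios scaling these were -0.18, -0.20, -0.10 and -0.09, none of them called. *PFKL* was also lost without shEV replicate 2 or shEV replicate 3 (adjusted p = 0.0554 and 0.0578), and *TPI1* when shEV replicate 2 or 3 or shPAX2 replicate 2 was left out (adjusted p = 0.0566 to 0.0750).

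The other enzymes were not called. *LDHA*, which turns pyruvate into lactate, stood at 933, 1108 and 1204 TPM (shEV) and 859, 885 and 975 TPM (shPAX2), and -0.25 (adjusted p = 0.0644) did not pass. It passed in 4 of 16 fits, which were those without shEV replicate 1, at -0.35 (adjusted p = 0.0103), with the replicate block (adjusted p = 0.0252), under quantile normalization, at -0.28 (adjusted p = 0.0391), and with voom, at -0.23 (adjusted p = 0.0384). *LDHB*, its partner subunit, stood between 962 and 1107 TPM in all libraries with a log2 fold change of -0.00 and a 95% interval from -0.15 to 0.14, and its sign turned with the scaling. The ratio of *LDHA* to *LDHB* was 0.842, 1.15 and 1.19 in shEV and 0.858, 0.873 and 0.924 in shPAX2 replicates 1 to 3, so it exceeded 1 only in shEV replicates 2 and 3. *ENO1* was the enzyme that stood highest relative to control, at 1559, 1565 and 1664 TPM (shEV) and 1575, 1964 and 1960 TPM (shPAX2). The groups overlapped narrowly, and 0.19 (adjusted p = 0.109) on the TPM scale became 0.31 (adjusted p = 0.0213) under median-of-ratios scaling, and 0.30 (adjusted p = 0.00300) without shPAX2 replicate 1. *GAPDH*, commonly used as a reference gene, changed by -0.14 (adjusted p = 0.0909), *ALDOA* by -0.13 (adjusted p = 0.0708), *ALDOC* by -0.39 (adjusted p = 0.127) and *PGAM1* by -0.03 (adjusted p = 0.735), none past the threshold, and the sign of *PGAM1* turned under median-of-ratios scaling (0.08). *ALDOA* was called under quantile normalization (-0.15, adjusted p = 0.0395) and without shPAX2 replicate 1 (-0.14, adjusted p = 0.0434). Many of these enzymes have processed pseudogenes, and how reads matching several places were counted is not given in the sources used here.

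**Figure D5:**
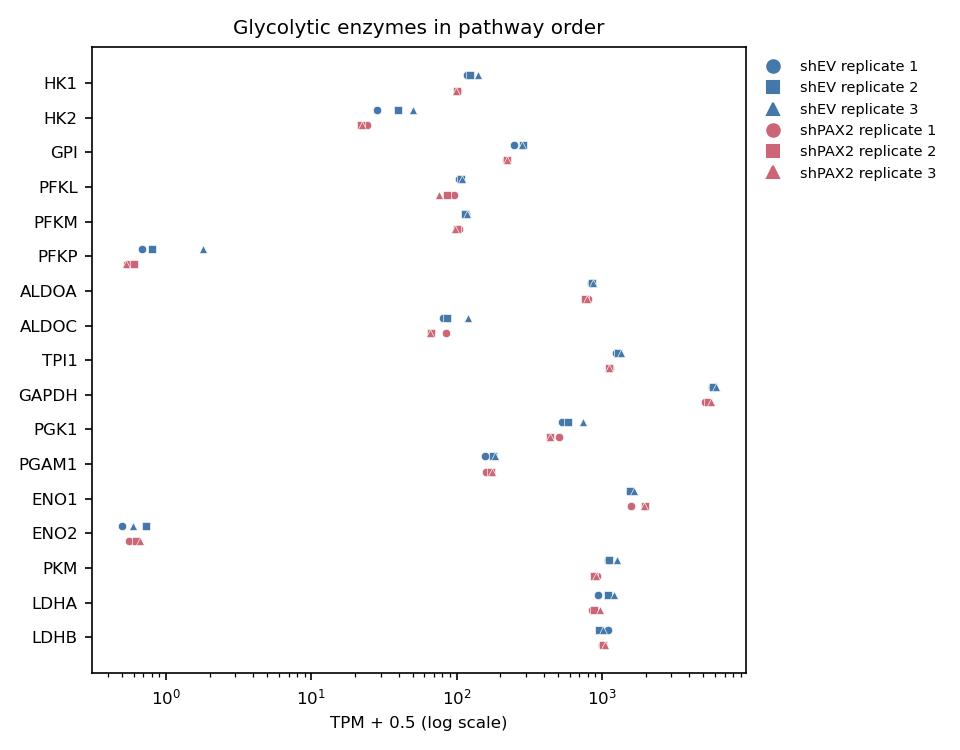
TPM + 0.5 (x axis, log scale) of the 17 glycolytic enzymes in pathway order, with 1 point per library (blue shEV, red shPAX2, shapes give the replicate). *GAPDH* lies highest at 5103 to 6098 TPM, *PFKP* and *ENO2* lie near the left edge, and *HK2* has the largest fold difference of the 15 tested enzymes.

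Neighbouring branches of sugar metabolism were read from lists of pathway genes. Among 35 other glycolysis genes, 16 were tested, with 6 lower (37.5%, against 30.5% of all genes), 1 higher (6.25%, against 12.2%) and a median log2 fold change of 0.03. The lower ones included the phosphoglucomutases *PGM1* (-0.56 (adjusted p = 3.21e-04)) and *PGM2* (-0.50 (adjusted p = 0.00283)), which link glycolysis with glycogen, and the transporter genes *SLC2A10* (-0.78 (adjusted p = 3.85e-04)) and *SLC2A13* (-0.53 (adjusted p = 0.00843)). All 4 were also called under median-of-ratios scaling. *SLC2A6* was the 1 that was higher on the TPM scale, at 0.52 (adjusted p = 0.00161). Under median-of-ratios scaling 5 of the 16 were higher (31.2%, against 21.8% of all genes) and 5 lower (31.2%, against 19.6%). Under quantile normalization 5 were higher (31.2%, against 18.0%) and 3 lower (18.8%, against 18.9%). None of the 7 tested pentose phosphate genes was called by limma, 0 had an unadjusted p under 0.05, and their median was 0.02, while under median-of-ratios scaling *TKT* was higher (0.16, adjusted p = 0.0323). Of 13 pyruvate entry genes, all tested, 3 were lower (23.1%, against 30.5%) and 1 was higher (7.69%, against 12.2%). *MPC1*, a subunit of the mitochondrial pyruvate carrier that lies on chromosome 6, was higher at 0.31 (adjusted p = 0.00416), and *PDK3* (-0.53), *PDP1* (-0.27) and *PDK2* (-0.20) were lower, of which *PDK3* was also called under median-of-ratios scaling. *PDK4*, at 139 to 182 TPM the most abundant of the 4 pyruvate dehydrogenase kinases, changed by 0.10 (adjusted p = 0.450).

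A further list of 48 genes known to respond to hypoxia was read in the same way. The list was chosen with earlier results of these data known, so its shares are no independent support for those of the members. Of 40 tested, 22 were lower (55.0%, against 30.5% of all genes) and 2 were higher (5.00%, against 12.2%), and the median was -0.39. Under median-of-ratios scaling 18 were lower (45.0%, against 19.6%) and 2 higher (5.00%, against 21.8%). Under quantile normalization 20 were lower (50.0%, against 18.9%) and 2 higher (5.00%, against 18.0%). ShEV replicate 3 was the highest control library in 33 of these 40 (82.5%) and shEV replicate 1 the lowest in 26 (65.0%). Past a log2 fold change of 1 in size, 5 were lower (12.5%, against 3.11% of all genes) and 1 was higher (2.50%, against 1.43%). *TGFA*, a ligand of the EGF receptor, stood at 2.51, 1.86 and 2.11 TPM (shEV) and 0.0455, 0.138 and 0.0713 TPM (shPAX2), from 58, 71 and 82 reads in shEV and 3, 8 and 3 reads in shPAX2. The change was -2.18 (SE 0.17, limma adjusted p = 2.61e-05) on the log2 scale, and it moved with the pseudocount to -3.63 at 0.1. *TMEM45A* (-1.61 (adjusted p = 0.00791)), *PPP1R3C*, which targets a phosphatase to glycogen (-1.53 (adjusted p = 0.00368)), *PLOD2*, a collagen lysyl hydroxylase (-1.52 (adjusted p = 0.0110)), and *ANGPTL4*, an inhibitor of lipoprotein lipase (-1.69 (adjusted p = 0.0162)), were the others. *PLOD2* was lost with the replicate block (adjusted p = 0.0565) and without shPAX2 replicate 2 (-1.49, adjusted p = 0.0527) or replicate 3 (-1.41, adjusted p = 0.0503). *ANGPTL4* was lost without any 1 shPAX2 library (-1.75 to -1.63, adjusted p = 0.0548 to 0.0749).

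*FLT1*, the gene of VEGF receptor 1 and itself known to respond to hypoxia, was the 1 gene of this list that was higher past the fold threshold, and the transferrin receptor gene *TFRC* was higher by less, at 0.35 (adjusted p = 0.00633), in all 16 fits. *FLT1* stood at 4.99, 2.69 and 2.68 TPM (shEV) and 22.3, 45.9 and 50.1 TPM (shPAX2), with every shPAX2 library above every shEV library, and rose by 3.30 (SE 0.42, limma adjusted p = 0.00399) on the log2 scale, called in all 16 fits. Its ligand gene *VEGFA* did not rise with it.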

How the data were processed

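Per the labels, the 6 libraries came from stranded total RNA kits, and the submitters' processing notes name bcl2fastq, STAR, Subread, featureCounts, edgeR and hg19, with no versions or roles. The study's RNA-seq methods describe another cell line. The authors deposited TPM values for 17471 genes, each library summing to 1000000. Ratios of TPM between libraries were ratios of whole numbers in 100.0% of genes (relative deviation at most 7.15e-14), and reads were recovered from them up to a factor shared by a gene's libraries.

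Genes with at least 0.5 TPM in at least 3 libraries (13163) were tested with limma 3.58.1 in R 4.3.3 on log2(TPM + 0.5), using moderated variances that followed the mean and were robust to outlying genes, for the 3 shPAX2 and 3 shEV libraries, two-sided, with Benjamini-Hochberg adjustment over all genes tested. Fold changes on this scale understate low genes. An exact permutation test of 3 against 3 libraries cannot go below 0.1 and was not used. The fit was tested on simulated data, where it recovered most changed genes and its calls held more unchanged genes than the adjusted p threshold allows. Other pseudocounts, filters, scalings, moderation, voom on recovered reads, a replicate block and each library left out were the alternatives, giving 16 fits in all.

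Named genes were all members, *PAX2* and pathway-list genes past both thresholds, and other genes of the lists were picked for mention with their values in view. The members and lists were chosen with earlier results of these data known. Gene positions were taken by symbol from the GENCODE annotation lifted to GRCh37 (16480 genes, 1238 through an older symbol). Intervals are 95%. Promoters came from RefSeq (GRCh38.p14) and were located in GRCh37 by exact match.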

Additional observations from a re-analysis of the deposited data

How the results depend on the processing

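*PAX2* stayed lower and past the threshold in all 15 fits that tested it. The numbers of the libraries did not pair them (deviations from the group means correlated at -0.0523, 0.0815 and 0.0014 between libraries of 1 number). With the replicate block 15 members were lower in place of 17 (37.5%, against 27.5% of all genes) and 1 was higher (2.50%, against 11.3%). The block changed no call of a named gene other than *HK2*, *PGK1*, *BNIP3L*, *PLOD2* and *LDHA*. Over all genes, 1612 were higher and 4017 lower. Median-of-ratios scaling gave 2867 and 2579, and quantile normalization 2367 and 2489. Leaving out 1 library at a time gave 975 to 1803 higher genes, the fewest without shPAX2 replicate 2, and 2867 to 3855 lower genes. Members called higher numbered 1, but 3 under median-of-ratios scaling, quantile normalization or voom (7.50% each, against 21.8%, 18.0% and 14.9% of all genes). They numbered 0 to 2 without 1 library (0% to 5.13%, against 7.49% to 13.9% of all genes). Members called lower numbered 17, but 9 under median-of-ratios scaling, and 11 to 22 without 1 library. The lower regulators were 3 (37.5%, against 30.5% of all genes), but 1 under median-of-ratios scaling (12.5%, against 19.6%), and 1 to 3 without 1 library. With 8 regulators tested, both shares were near the background. The lower enzymes were 8 (53.3%, against 30.5% of all genes), but 2 under median-of-ratios scaling (13.3%, against 19.6%). They were 4 to 9 without 1 library. The fewest, without shEV replicate 2, were 26.7% (against 24.6% of all genes), near the background. The most, without shEV replicate 1, were 60.0% (against 25.5%). The lower other HIF targets were 4 to 7 without 1 library. These were 36.4% without shPAX2 replicate 3 (against 24.9% of all genes) and 70.0% without shEV replicate 1 (against 25.5%). Transporters and flux regulators had 1 lower gene with no filter (14.3%, against 21.8% of all genes) and 1 with plain moderation (16.7%, against 28.8%). They had 0 to 3 without 1 library, with 3 only without shEV replicate 1 (50.0%, against 25.5%). The median of the members, -0.33, lay between -0.39 and -0.19 without 1 library, weakest without shEV replicate 3.

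Signs turned only for members near 0 or with widely spread controls. *VHL* became 0.02 under median-of-ratios scaling and 0.00 under quantile normalization. *PGAM1* became 0.08 under median-of-ratios scaling and lay between -0.10 and 0.01 without 1 library. *LDHB* became 0.11 under median-of-ratios scaling, 0.01 under quantile normalization, 0.02 with voom, and lay between -0.05 and 0.05 without 1 library. *ADM* became -0.00 with voom and lay between -0.16 and 0.42 without 1 library. Without 1 library *SLC2A3* lay between -0.45 and 0.04 and *NDRG1* between -0.87 and 0.42, both highest without shEV replicate 3. Of the 25 named genes other than *PAX2* that were called, 12 were called in every fit that tested them. The causes of these changes were not tested. The filter at a TPM of 5 removed low genes such as *EPAS1* and *CA12* by construction. Few reads limit *CA9*, *SLC16A3*, *PFKP* and *ENO2*. With no filter *SLC16A3* was called lower and the others were not (adjusted p = 0.148 to 0.898).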
